A study of Mus musculus with 16 samples.

Results

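The STAT transcription factors were followed in mouse dendritic cells through their 6 genes Stat2, Stat3, Stat4, Stat5a, Stat5b and Stat6. They were chosen by name, as every probe set that the probe table gives to 1 of these symbols. That came to 13 of the 45101 probe sets on the arrays, or 6 of the 18193 genes tested. Stat3 had 4 probe sets, Stat4 had 1, and Stat2, Stat5a, Stat5b and Stat6 had 2 each. The cells were grown from bone marrow of wild-type C57BL/6 mice for 8 days with 15 ng/ml of GM-CSF, and the non-adherent immature dendritic cells were then placed in fresh medium with 10 ng/ml of GM-CSF. The NCFM groups received the bacterium Lactobacillus acidophilus NCFM at 10 µg/ml for 4, 10 or 18 h, with 3 arrays at each time. The control group of 4 h had 3 arrays and those of 10 and 18 h had 2 arrays each. GM-CSF, itself a cytokine that acts through STAT proteins, was thus present in all 6 groups, NCFM and control alike. The labels call the arrays replicates and do not say whether they came from separate cultures or mice, so p-values measure the spread between these arrays.

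STAT proteins carry the signal of a cytokine from the cell surface to the genes. A bound receptor activates JAK kinases, these phosphorylate a STAT on a tyrosine, and the STATs pair through their SH2 domains, enter the nucleus and bind DNA. Stat2 works with Irf9 in the complex that type I interferon switches on. Stat3 is the main STAT of IL-6 and IL-10, Stat4 of IL-12, Stat5a and Stat5b of GM-CSF and IL-2, and Stat6 of IL-4 and IL-13. An array measures the transcript of a STAT gene and not the phosphorylation that activates the protein.

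The promoters of the members are shown because STAT complexes bind 2 kinds of short DNA motif, and some STAT genes are themselves targets of interferon. The interferon motif (ISRE) was searched as GAAA, any 2 bases and GAAA, and the gamma-activated motif (GAS) as TTC, any 3 bases and GAA, or TTC, any 4 bases and GAA, each on both strands. The windows run from 250 bases before to 50 bases after an annotated start (RefSeq, GRCm38.p6). All 6 members matched by symbol, with 9 windows. The 250 bases before the start are printed 5′ to 3′ on the gene's strand for the promoters that hold a motif and for those of the members whose transcripts rose, with motif matches in capitals. Stat2 lies at chr10:128270248-128270497 (+), Stat4 at chr1:52007990-52008239 (+), Stat3 at chr11:100939541-100939790 (-) and Stat5a at chr11:100860234-100860483 (+). Stat4 and Stat5a each have a window at another start, which is not printed.
Stat2: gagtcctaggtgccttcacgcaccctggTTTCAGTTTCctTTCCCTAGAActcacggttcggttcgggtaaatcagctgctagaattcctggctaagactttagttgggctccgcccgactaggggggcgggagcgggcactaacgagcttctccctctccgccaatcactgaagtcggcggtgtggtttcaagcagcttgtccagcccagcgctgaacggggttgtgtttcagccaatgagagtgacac
Stat4: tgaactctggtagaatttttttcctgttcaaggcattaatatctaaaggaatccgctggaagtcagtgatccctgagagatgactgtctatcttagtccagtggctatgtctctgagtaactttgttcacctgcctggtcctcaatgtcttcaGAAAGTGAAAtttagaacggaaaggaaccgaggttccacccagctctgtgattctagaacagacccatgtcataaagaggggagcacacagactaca
Stat3: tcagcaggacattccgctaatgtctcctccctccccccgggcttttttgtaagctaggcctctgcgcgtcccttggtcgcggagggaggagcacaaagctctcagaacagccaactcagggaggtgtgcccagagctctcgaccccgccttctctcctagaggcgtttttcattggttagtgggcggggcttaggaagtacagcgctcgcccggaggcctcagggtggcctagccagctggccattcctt
Stat5a: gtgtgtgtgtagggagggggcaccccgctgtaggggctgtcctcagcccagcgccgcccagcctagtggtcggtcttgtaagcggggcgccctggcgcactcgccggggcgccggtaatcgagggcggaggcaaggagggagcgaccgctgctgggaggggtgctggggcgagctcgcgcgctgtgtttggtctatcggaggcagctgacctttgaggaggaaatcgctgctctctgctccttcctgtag

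The Stat2 window held the ISRE letters on the minus strand at -222 to -213 from the start (read on the plus strand as TTTCAGTTTC) and a GAS with 4 spacer bases at -210 to -201 (TTCCCTAGAA). The 2 matches did not overlap. The printed Stat4 window held an ISRE at -97 to -88 (GAAAGTGAAA). None of the 3 motifs was found in the other 7 windows, which covered Stat3, Stat5a, Stat5b, Stat6 and the first start of Stat4. Over all 32851 windows of this length, 3.44% held the ISRE letters, 8.3% the GAS letters with 3 spacer bases and 6.95% those with 4. A match of letters is a description and not a bound site. Stat5b, Stat5a and Stat3 follow each other in that order among the protein-coding genes of chromosome 11. The printed Stat5a window and one of the Stat5b windows shared a run of 16 bases just before their starts (aggaaatcgctgctct, at -32 to -17 in Stat5a and -23 to -8 in Stat5b). In the other pairs among the 33 pairs of windows of different members, the longest shared run was 7 to 11 bases.

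The values are array intensities on a linear scale, with a median over all probe sets of 162 to 167 on each array. A change below is the difference in mean log2 intensity, NCFM minus control, with its standard error, so that a change of 1 means a doubling. A change was called where the Benjamini-Hochberg adjusted p of limma, over all 18193 genes, was under 0.05. At 4 h, 2 of the 6 members were called higher (Stat2 and Stat5a), against 5.27% of all genes called higher. At 10 h it was 3 of 6 (Stat2, Stat3 and Stat5a), against 8.21% of all genes, and at 18 h 2 of 6 (Stat2 and Stat3), against 7.4%. No member was called lower by this test at any time, where 13.1%, 16.5% and 16.3% of all genes were. At an unadjusted p under 0.05, Stat6 was lower at 10 h. The median change of the 6 members was 0.41, 0.84 and 0.65 at the 3 times, and that of all genes was -0.0066, 0.0083 and 0.0022. Levels of bulk RNA were measured, so fewer cells of a type and less RNA per cell cannot be told apart.

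The arrays differed among themselves in 2 ways that touch these genes. In each group the array numbered 1 stood apart from the others. Xist was at 245 to 369 on these 6 arrays and 1999 to 7663 on the other 10. Eif2s3y, a Y-linked gene, was at 896 to 1222 against 63 to 73. By these 2 genes the arrays numbered 1 had the pattern of male cells and the others that of female cells. The labels do not give the sex, and its part in any result below was not tested. NCFM array 3 at 4 h had 327 genes at least 2-fold below the mean of its partners, against 3 and 141 genes on the other arrays of its group. At 18 h, control array 1 had 335 genes at least 2-fold below control array 2 and 250 at least 2-fold above it. At 10 h, control array 1 had 125 genes below control array 2 by this cut and 200 above it. The neutrophil marker sum (7 of 8 markers measured) was 7730 to 35702 in NCFM and 28390 to 40892 in control arrays at 4 h, 12913 to 34015 and 39041 to 47401 at 10 h, and 5556 to 16953 and 22751 to 25519 at 18 h, so that it was lower on every NCFM array at 10 and 18 h; no marker of this list was below the array median on all arrays. Of the 7, Ltf and Elane were called lower at 10 h and Ltf at 18 h. The dendritic cell markers (8 of 8 measured, with none below the array median on all arrays) summed to 58048 to 63535 in NCFM and 58326 to 60345 in control arrays at 4 h, 52898 to 54701 and 56122 to 56975 at 10 h, and 50156 to 54652 and 60052 to 61729 at 18 h. Their sum was thus also lower on every NCFM array at 10 and 18 h. Itgax was called lower at 10 h, and Itgax, Cd74 and Ciita at 18 h. The part of either marker list in any result below was not tested.

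**Figure D1:**
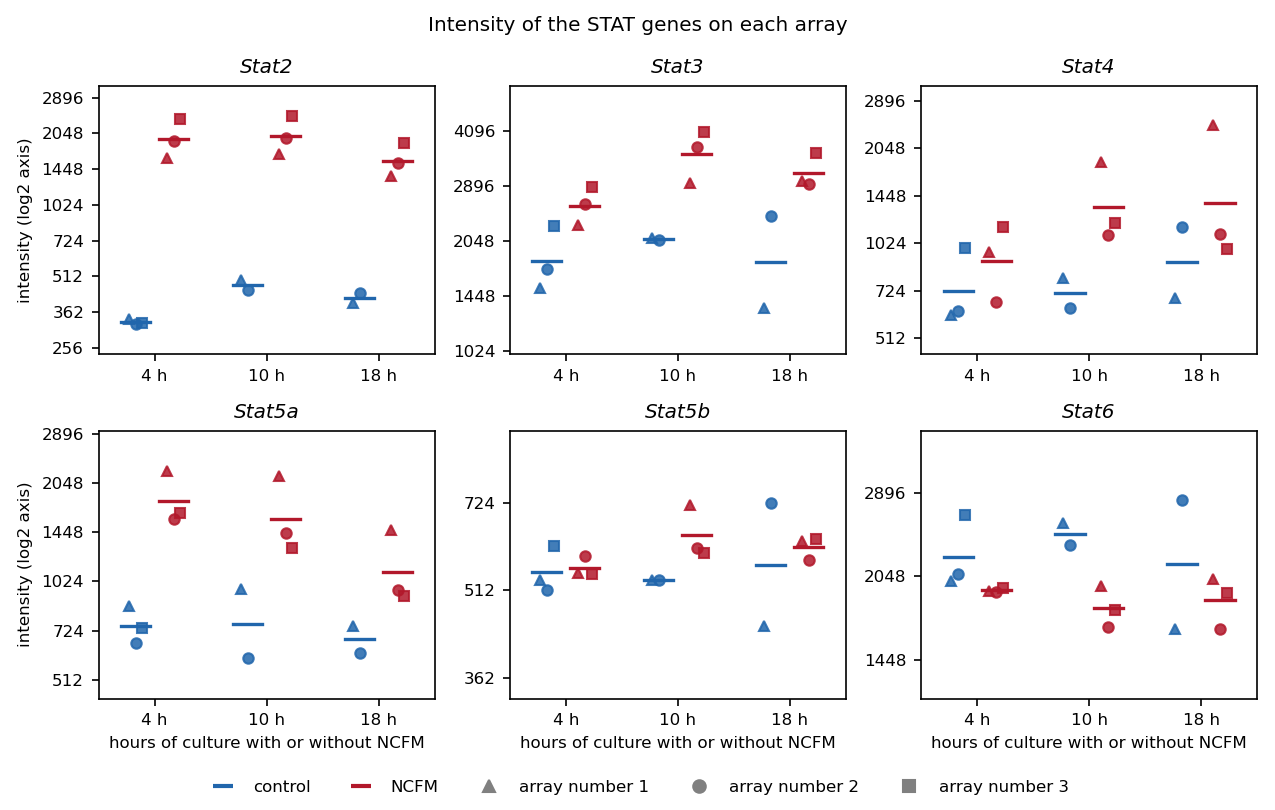
Intensity (log2 axis) of the probe set with the highest mean of each of the 6 STAT genes, against hours of culture. Red marks are NCFM and blue marks control arrays, with 1 mark an array, its shape giving the array number and bars the group means of log2 intensity; the 9 NCFM arrays of Stat2 lie between 1356 and 2428 and its 7 control arrays between 322 and 494.

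Stat2, the interferon STAT, gave the clearest difference. At 4 h its intensity was 1606, 1908 and 2353 on NCFM arrays 1, 2 and 3, against 339, 322 and 325 on the control arrays. At 10 h the NCFM arrays had 1676, 1947 and 2428 and the control arrays 494 and 450. At 18 h the values were 1356, 1539 and 1856 against 396 and 434. Every NCFM array was above every control array at all 3 times, as for 13.8%, 23.2% and 21.1% of all genes, and within each NCFM group array 1 was lowest and array 3 highest. Stat2 rose by 2.56 ± 0.16 at 4 h (5.88-fold, adjusted p = 1.48e-06), 2.08 ± 0.17 at 10 h (4.23-fold, 1.03e-05) and 1.92 ± 0.17 at 18 h (3.79-fold, 1.87e-05). Ordered by the size of the rise, it stood at rank 74, 148 and 142 of the 18193 genes.

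The second Stat2 probe set gave changes of 2.05, 2.00 and 1.74, all called among the 45037 probe sets tested one by one. The difference between the effects of NCFM on Stat2 at 18 h and at 4 h was -0.63 ± 0.23 (95% interval -1.14 to -0.12), which did not pass over all genes (adjusted p = 0.193; 3.4% of genes passed). With the array number as a block the same difference was -0.73 and passed (adjusted p = 0.0173, with 0.0173 to 0.343 among its alternatives). The mean intensity of the control groups was 328.7 ± 9.07 (SD, n = 3) at 4 h, 472 ± 31.1 (n = 2) at 10 h and 415 ± 26.9 (n = 2) at 18 h. For the second probe set the control arrays at 10 h, at 354 and 369, lay between those at 18 h, at 319 and 402. From 4 to 10 h the change of Stat2 in control cells was 0.52 (limma, unadjusted p = 0.0114), and it did not pass over all genes, of which none passed and 553 had an unadjusted p under 0.05.

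Stat3, the factor of IL-6 and IL-10, was higher by a smaller amount. Its brightest probe set had 2259, 2586 and 2867 on the NCFM arrays at 4 h and 1525, 1712 and 2246 on the control arrays. At 10 h it had 2942, 3702 and 4071 against 2084 and 2059. At 18 h it had 2994, 2936 and 3553 against 1341 and 2389. The groups did not overlap at any time, as for 13.8%, 23.2% and 21.1% of all genes at 4, 10 and 18 h. At 4 h the lowest NCFM array was just above the highest control array, and the control arrays at 18 h were far apart. Stat3 rose by 0.77 ± 0.23 at 10 h (1.71-fold, adjusted p = 0.0271) and by 0.82 ± 0.23 at 18 h (1.76-fold, adjusted p = 0.0217). At 4 h the change of 0.50 ± 0.20 did not pass (adjusted p = 0.112), and with the array number as a block it did (0.50, adjusted p = 0.0185, over a range of 0.0146 to 0.291). The same change also passed when either control array of 18 h was left out of the fit (adjusted p = 0.0419).

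For the brightest Stat3 probe set, the rise at 18 h rested on control array 1. Without that array, which leaves 1 control array at 18 h, the change was 0.40 and the call was lost. It was also lost without NCFM array 3 (0.73, adjusted p = 0.0682) and, at 10 h, without NCFM array 2 or 3 or either control array (0.67 to 0.78, adjusted p = 0.0736 to 0.127).

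The 4 Stat3 probe sets rose to different extents. The second brightest gave 0.68 at 4 h (adjusted p = 0.019 over all probe sets), 0.85 at 10 h (0.00802) and 1.52 at 18 h (1.89e-04). All its NCFM arrays, at 1696 to 2825, were above all its control arrays, at 576 to 1459, which was not counted over all genes. At 18 h, control array 1 was below control array 2 on the brightest probe set and above it on this one (859 against 576). The other pair lay near the array median, at 146 to 284 and 161 to 238, with changes of 0.36, 0.56 and 0.29 and of 0.18, 0.26 and 0.33. Of these 6 values, 0.56 at 10 h (adjusted p = 0.0417) and 0.33 at 18 h (0.0325) passed. In all, 5, 6 and 7 of the 13 STAT probe sets were called higher at 4, 10 and 18 h, against 4.5%, 6.59% and 5.91% of all probe sets, and none was called lower by limma (at an unadjusted p under 0.05, 1 Stat6 probe set was lower at 10 h).

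**Figure D2:**
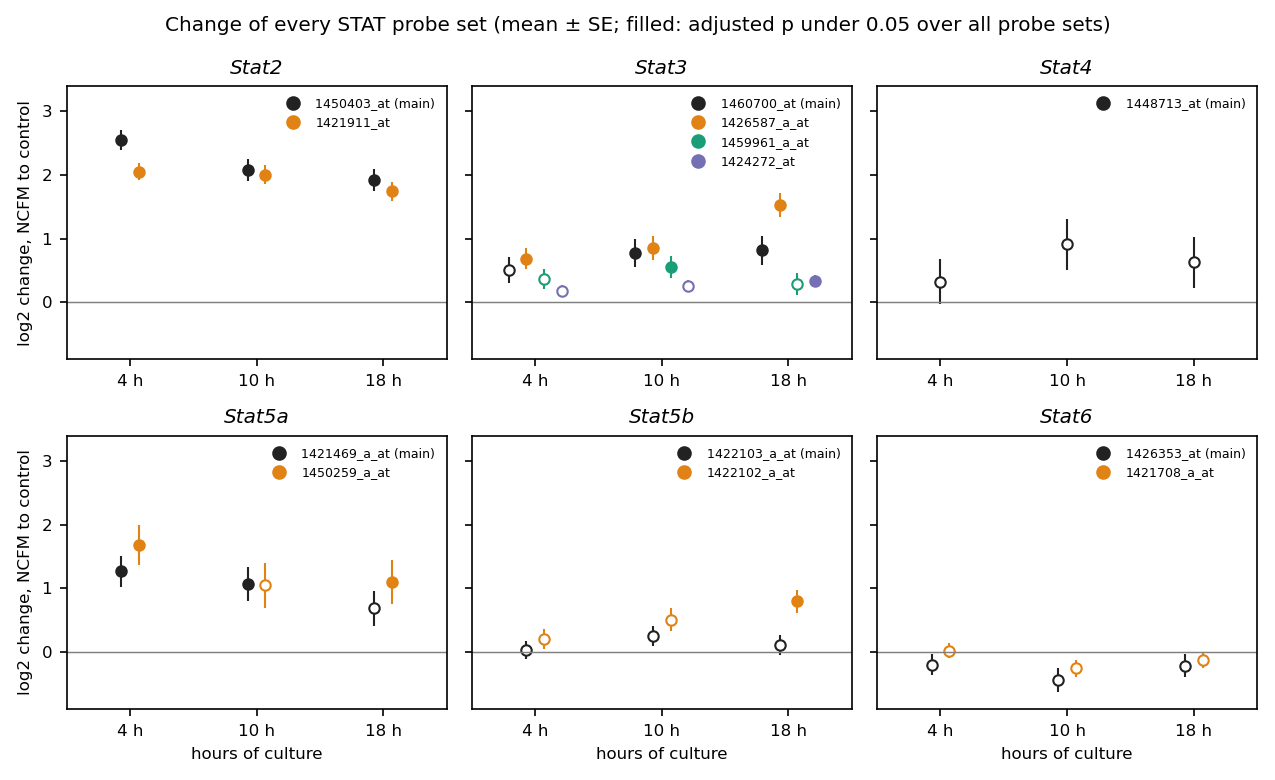
Change in log2 intensity (NCFM minus control) of each of the 13 STAT probe sets at 4, 10 and 18 h, with a colour for each probe set of a gene, black for the one with the highest mean, bars for 1 standard error of the limma fit, and filled points where the test passed over all probe sets. Both Stat2 probe sets lie between 1.74 and 2.56, and the Stat6 probe sets lie at or below 0.02.

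Stat5a and Stat5b, which are neighbours on chromosome 11 and code for closely related proteins, gave different values. Stat5a had 2228, 1593 and 1658 on the NCFM arrays at 4 h against 862, 663 and 737 on the control arrays. At 10 h the values were 2161, 1446 and 1301 against 968 and 597, and at 18 h 1470, 964 and 924 against 749 and 619. The NCFM arrays were above the control arrays at every time, as for 13.8%, 23.2% and 21.1% of all genes at 4, 10 and 18 h. Array 1 was the highest of each of the 6 groups. Stat5a rose by 1.27 ± 0.25 at 4 h (2.41-fold, adjusted p = 0.00366) and by 1.07 ± 0.27 at 10 h (2.10-fold, adjusted p = 0.0132). At 18 h the change was 0.68 ± 0.27 and did not pass (adjusted p = 0.0934), while with the array number as a block it was 0.77 and passed (adjusted p = 3.97e-04, over a range up to 0.364). Without control array 2 the 10 h value was 0.72 and did not pass (adjusted p = 0.129, over a range from 3.05e-05).

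Among NCFM cells alone, the change of Stat5a from 4 to 18 h was -0.72, which did not pass (adjusted p = 0.0664; 16.2% of genes passed). The difference between its effects at 18 h and 4 h was -0.58 ± 0.37 (adjusted p = 0.523), and it passed with arrays 2 and 3 only (-0.61, adjusted p = 0.0337). The second Stat5a probe set gave 1.68 (adjusted p = 0.00399 over all probe sets), 1.05 (0.0577) and 1.10 (0.0488). Its NCFM arrays were at 452 to 1098 and its control arrays at 229 to 561, with no overlap at any single time. The share of all probe sets without overlap was not counted.

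For Stat5b the brighter probe set had 548, 586 and 545 on the NCFM arrays at 4 h and 532, 512 and 609 on the control arrays. At 10 h it had 719, 604 and 594 against 534 and 533, and at 18 h 621, 576 and 627 against 444 and 723. The groups overlapped at 4 and 18 h, and at 18 h the pair of control arrays enclosed all NCFM arrays. Its changes of 0.03 ± 0.14, 0.25 ± 0.16 and 0.10 ± 0.16 did not pass (adjusted p = 0.928, 0.266 and 0.694), and their 95% intervals reached up to 0.33, 0.60 and 0.45. The sign at 18 h turned without control array 1 (-0.25) and the change passed without control array 2 (0.45, adjusted p = 0.0242, over a range of 0.0169 to 0.809).

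The other Stat5b probe set went further: it had 399, 473 and 426 against 353, 398 and 371 at 4 h, 656, 553 and 529 against 433 and 380 at 10 h, and 826, 563 and 493 against 380 and 328 at 18 h. Its groups did not overlap, though they came close at 4 h, and the share of all probe sets without overlap was not counted. Its changes were 0.21, 0.51 and 0.79. The value at 18 h passed (adjusted p = 0.00835) and those at 4 and 10 h did not (0.0665 at 10 h). The mean of the 2 Stat5b probe sets passed at 10 h (0.38, adjusted p = 0.0325) and 18 h (0.45, adjusted p = 0.0169), so the call of Stat5b depends on the probe set.

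The change of the paralogs was set side by side as the log2 ratio of Stat5a to Stat5b on each array. It was chosen after their values had been seen, so it is given as a description and without a p-value. The ratio of the brighter probe sets was higher in NCFM than in control cells by 1.24 at 4 h, 0.82 at 10 h and 0.58 at 18 h. Its mean over the times was 0.88. The other 3 pairs of probe sets gave means of 0.50, 1.15 and 0.77. In the pair with the mean of 0.50 the difference at 18 h was -0.11, so at that time Stat5a did not exceed Stat5b for every pair.

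Arrays of the same number were also compared directly. For Stat5a the difference was 1.37, 1.26 and 1.17 between arrays 1, 2 and 3 at 4 h, 1.16 and 1.28 at 10 h, and 0.97 and 0.64 at 18 h. All 7 pairs were positive. They were so too for the second Stat5a probe set, both Stat2 probe sets, the second Stat5b probe set and all but 1 of the Stat3 probe sets. Array 1 was higher than its partners for Stat5a in 6 of 6 groups, by 0.50 on average (0.28 to 0.70), and for its second probe set by 0.62 (0.31 to 1.02). The share of all genes with either pattern was not counted. For Stat3 array 1 was higher in 1 of 6 groups, with a mean of -0.33. The Stat5a offset of array 1 was present in NCFM and control groups alike. That of Stat3 ran from -0.83 to 0.02, and on its second brightest probe set from -0.45 to 0.58 with a mean of -0.03. Stat3 between arrays of the same number differed by 0.57, 0.60 and 0.35 at 4 h, 0.50 and 0.85 at 10 h, and 1.16 and 0.30 at 18 h. When only arrays 2 and 3 were used, an alternative chosen after the data were seen, 1 control array was left at 18 h. Stat3 at 18 h then had 0.44 and lost its call, and Stat5a at 18 h had 0.61 and passed.

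**Figure D3:**
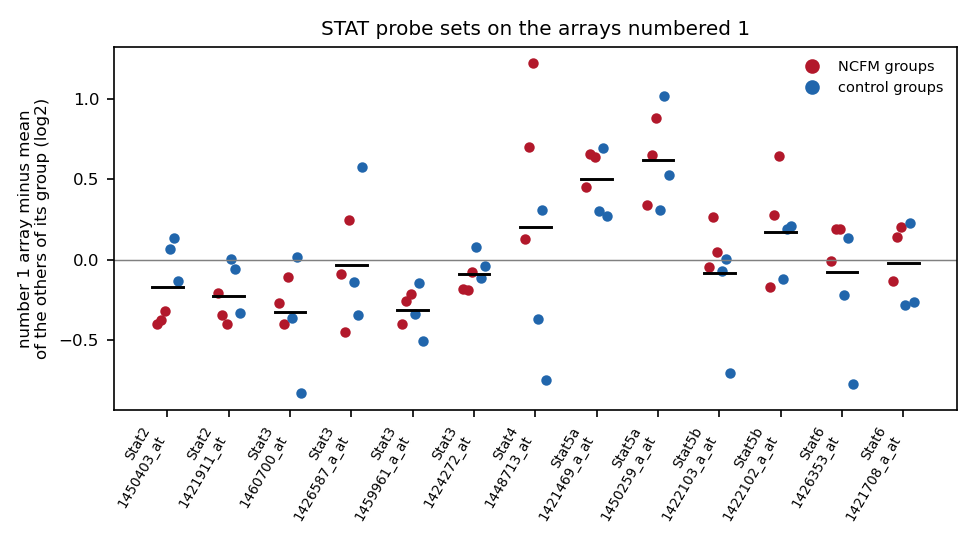
Log2 intensity of the array numbered 1 minus the mean of the other arrays of its group, for each of the 13 STAT probe sets, with 1 point a group (red NCFM, blue control) and bars at the mean of the 6 groups. All 6 points lie above 0 for both Stat5a probe sets, at 0.28 to 0.70 and 0.31 to 1.02.

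Stat4, the IL-12 factor best known from T and NK cells, had a single probe set and varied widely. At 4 h it had 958, 668 and 1150 on the NCFM arrays and 609, 625 and 992 on the control arrays. At 10 h it had 1850, 1088 and 1191 against 793 and 641, and at 18 h 2417, 1093 and 981 against 687 and 1154. The groups overlapped at 4 and 18 h and not at 10 h, as for the 23.2% of all genes given above. The changes of 0.32 ± 0.36, 0.91 ± 0.40 and 0.63 ± 0.40 did not pass (adjusted p = 0.593, 0.121 and 0.294), with 95% intervals of -0.46 to 1.10, 0.04 to 1.78 and -0.25 to 1.50. With 1 array left out they ran from 0.15 (without NCFM array 3) to 0.55 (without control array 3) at 4 h and from 0.22 (without NCFM array 1) to 1.00 (without control array 2) at 18 h. Between arrays of number 1 the difference was 0.65, 1.22 and 1.81 at the 3 times, and between arrays of number 2 it was 0.10, 0.76 and -0.08. With arrays 2 and 3 only, the 18 h value was -0.16.

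T cell markers were low on every array, with or without NCFM. Their sum over 7 of 8 markers was 1161 to 1355, Cd3g, Cd2 and Cd5 were below the array median on all arrays, and none of the 7 was called by limma or had an unadjusted p under 0.05. The NK cell markers (7 of 8 measured, with Gzma and Eomes below the median on all arrays) summed to 1516 to 1796 in NCFM and 1203 to 1462 in control arrays at 4 h, 1615 to 1826 and 1175 to 1294 at 10 h, and 1408 to 1611 and 1199 to 1383 at 18 h. Gzmb and Klrk1 were called higher at 10 h and Prf1 at 18 h. The part of these markers in the Stat4 values was not tested.

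Stat6, the factor of IL-4 and IL-13, lay lower in NCFM cells at 4 and 10 h without passing the test. Its brighter probe set had 1927, 1919 and 1949 on the NCFM arrays at 4 h and 2005, 2064 and 2647 on the control arrays. At 10 h it had 1965, 1656 and 1783 against 2559 and 2329, and at 18 h 2027, 1642 and 1913 against 1647 and 2815. All NCFM arrays were below all control arrays at 4 and 10 h, as for 22.7% and 28.9% of all genes, and the groups overlapped at 18 h. The changes were -0.20 ± 0.17, -0.44 ± 0.19 and -0.22 ± 0.19 (adjusted p = 0.455, 0.107 and 0.447). The change at 10 h passed when either control array of 18 h was left out of the fit (-0.44, adjusted p = 0.0224) and with only the 2 groups compared (0.038). At 18 h, without control array 1 the change was -0.60 and passed (adjusted p = 0.0199), and without control array 2 it was 0.17 (adjusted p = 0.548), over a range of 0.0187 to 0.726. The second Stat6 probe set had 627 to 890 over all arrays and changes of 0.02, -0.26 and -0.13.

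Among the brightest probe sets of the 6 members, only that of Stat2 had every NCFM array above every control array of any time. Among the other probe sets, the second of Stat3 and the second of Stat2 did so too. The share of all genes that do so was not counted. Stat2 was the only member called at all 3 times, so no other member could keep such calls. Its calls held in each of the 29 alternatives run, as did the call of Stat5a at 4 h. In order of group means, Stat2 ran from NCFM at 10, 4 and 18 h to control at 10, 18 and 4 h. The step from NCFM at 18 h to control at 10 h was 1.74 on the log2 scale, and the neighbours among the NCFM groups overlapped. Stat3 ran from NCFM at 10, 18 and 4 h to control at 10, 4 and 18 h, with no overlap between NCFM at 4 h and control at 10 h, the neighbours on either side of the step. For Stat5a the neighbours in the order overlapped at each step, NCFM at 18 h with control at 10 h included. All neighbouring groups overlapped for Stat4, Stat5b and Stat6 as well. In the fit of all 16 arrays as 6 group means, no effect of NCFM on a member differed between 2 times by limma, where 0.506% (10 h minus 4 h), 0.0055% (18 h minus 10 h) and 3.4% (18 h minus 4 h) of all genes did. At an unadjusted p under 0.05, that of Stat2 differed between 18 and 4 h. With centring on the spike-in probe sets, which moves the median of all genes, the differences passed for Stat2 at 10 h minus 4 h (-0.92, adjusted p = 0.0107) and 18 h minus 4 h (-0.82, adjusted p = 0.034) and for Stat6 at 10 h minus 4 h (-0.69, adjusted p = 0.0483).

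The genes nearest in pattern to a called member were listed by the root mean square difference over the 16 arrays, after each gene had been centred on its own mean log2 intensity. For Stat2, whose standard deviation over the arrays was 1.17, they were Tor3a (0.17), Mx2 (0.18), an antiviral GTPase, and Daxx (0.21). For Stat3, with a standard deviation of 0.45, they were Il13ra1 (0.15), a receptor chain for IL-13, Plcl2 (0.15) and Mdfic (0.16). For Stat5a, with 0.63, they were Fnbp1l (0.21), Il2ra (0.24), the alpha chain of the IL-2 receptor, and Lta (0.24), a cytokine of the TNF family. Il2ra changed by 0.94, 1.33 and 0.41 at the 3 times, of which 1.33 passed (adjusted p = 0.0255), beside 1.27, 1.07 and 0.68 for Stat5a.

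Upstream of the STATs, the cytokines and kinases that activate them were taken from a list. Of 23 measured STAT-activating ligands, 11, 10 and 8 rose at 4, 10 and 18 h, beside 5.27%, 8.21% and 7.4% of all genes. None was called lower by limma, where 13.1%, 16.5% and 16.3% of all genes were, and none was lower at an unadjusted p under 0.05. The median changes of the ligands were 0.68, 0.27 and 0.24. Il6, the cytokine that signals through Stat3, changed most. Its intensity was 15314 to 19695 in NCFM and 183 to 433 in control arrays at 4 h, and it rose by 5.86 ± 0.32, 5.10 ± 0.36 and 5.42 ± 0.36 at the 3 times. Il12b, the shared subunit of IL-12 and IL-23, rose by 5.15, 5.04 and 4.26. Ifnb1, the type I interferon that signals through Stat2, was at 1396 to 1690 in NCFM and 134 to 147 in control arrays at 4 h. It rose by 3.43 ± 0.23 at 4 h, 1.30 ± 0.25 at 10 h and 0.77 ± 0.25 at 18 h (adjusted p = 2.16e-06, 0.00274 and 0.0452). Il10, a ligand of the Stat3 pathway named after its values were seen, had 123 to 306 at 4 h, 592 to 1369 at 10 h and 352 to 419 at 18 h in NCFM arrays against 101 to 127 in all control arrays. It rose at 10 h (3.05, adjusted p = 8.94e-05) and 18 h (1.63, adjusted p = 0.00517).

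Among 28 measured receptor genes, 3, 6 and 7 rose and 2, 5 and 3 fell at the 3 times, with median changes of 0.09, 0.16 and 0.12. Over all genes 5.27%, 8.21% and 7.4% rose and 13.1%, 16.5% and 16.3% fell, so that the share of receptors that fell was near or below that of all genes. Il12rb1, a chain of the IL-12 receptor that Stat4 follows, rose by 0.34, 0.74 and 0.62, and Il10ra rose by 1.03 at 4 h. Il15ra, the alpha chain of the IL-15 receptor, rose by 1.90, 2.59 and 2.23. Ifngr1, which binds interferon gamma, fell by 1.21, 1.52 and 1.72 on the log2 scale (adjusted p = 0.0152, 0.00609 and 0.00306). Il12rb1, Il10ra, Il6st, the signalling chain for IL-6, and Csf2ra and Csf2rb, the 2 chains of the GM-CSF receptor, were named after their values were seen. Il6ra, the IL-6 binding chain, was the fifth that fell at 10 h (-0.39, adjusted p = 0.0488). Il6st fell by 0.84, 1.08 and 1.08. Csf2ra had -0.13, -0.53 and -0.90, of which the values at 10 and 18 h passed (adjusted p = 0.0128 and 5.48e-04), and Csf2rb had -0.16, -0.48 and -0.23, of which that at 10 h passed (0.0104).

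Of the 4 JAK kinases, Jak2, which serves the GM-CSF and IL-12 receptors, rose at 4 h and 10 h, beside 5.27% and 8.21% of all genes. It had 4944 to 6478 in NCFM and 2757 to 3787 in control arrays at 4 h. Its changes were 0.69 ± 0.15 (adjusted p = 0.00767), 0.77 ± 0.17 (0.00576) and, not passing, 0.50 ± 0.17 at 18 h (0.0512). Jak1 had 0.34, 0.21 and 0.44, Jak3 0.26, -0.09 and 0.22, and Tyk2, the kinase of the interferon receptor, -0.01, 0.36 and 0.08. None of these 9 values passed (the lowest adjusted p was 0.0548, for Tyk2 at 10 h). Irf9, the DNA-binding partner of Stat2, had 1630 to 2139 in NCFM and 760 to 953 in control arrays at 4 h. It rose by 1.11 ± 0.16 at 4 h (adjusted p = 5.75e-04) and 0.63 ± 0.18 at 10 h (0.0238), and its change of 0.38 ± 0.18 at 18 h did not pass (0.149). Of the other 3 partners, Nmi, a protein that binds STATs, rose by 1.59, 2.19 and 1.24. Ep300, a histone acetyltransferase, had -0.32, -0.25 and -0.34 with no call.

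The inhibitors of the pathway held some of its largest changes, although most of the list was not called. Of 18 measured, 4, 3 and 4 rose, beside 5.27%, 8.21% and 7.4% of all genes. At each time 2 fell, beside 13.1%, 16.5% and 16.3% of all genes, so the share that fell was below that of all genes. The median changes of the list were 0.11, 0.06 and -0.0082. Usp18, which acts at the interferon receptor together with Stat2, rose by 3.59, 3.47 and 3.22. Socs3, which restrains IL-6 signalling through Stat3, was at 7176 to 9506 in NCFM and 482 to 1206 in control arrays at 4 h and rose by 3.49, 2.95 and 3.40. Socs1, a restraint on interferon signalling, rose by 2.75, 2.18 and 2.18. The others that were called, named after their values were seen, were Socs7 at 4 h (0.65) and Ptpn1, a phosphatase, at 18 h (1.48) among the rises, and Socs4 (-0.55 and -0.50 at 4 and 10 h), Socs6 (-0.50, -1.17 and -1.16) and Ptpn11 (-0.23 at 18 h) among the falls.

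**Figure D4:**
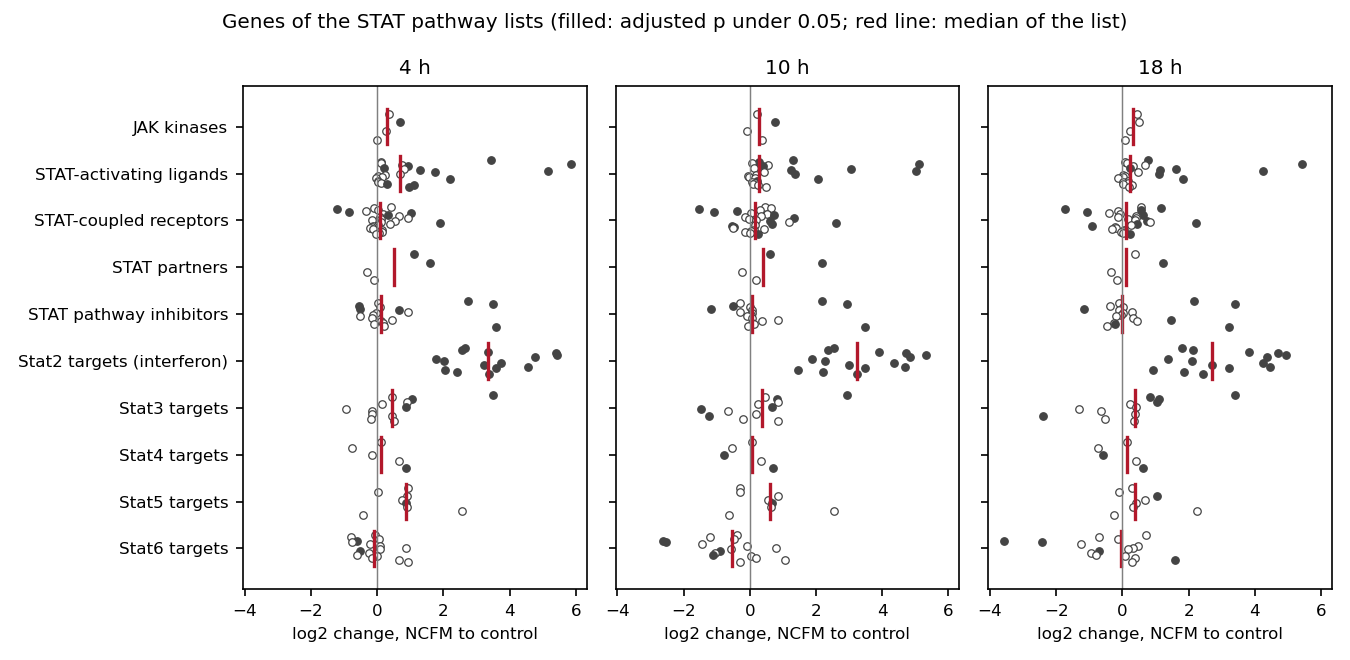
Change in log2 intensity (NCFM minus control) at 4, 10 and 18 h of each measured gene of the 10 lists around the STATs, with 1 point a gene, filled where limma called it, and red lines at the list medians. The 15 Stat2 target genes are all filled, with medians of 3.34, 3.25 and 2.72; the Stat6 target medians are -0.11, -0.53 and -0.03.

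Downstream, the target genes came from a list for each STAT. All 15 measured interferon targets of Stat2 rose at each of the 3 times, beside 5.27%, 8.21% and 7.4% of all genes. Their median changes were 3.34, 3.25 and 2.72. Ifit2 rose by 5.44, 5.31 and 4.94, Ifit1 by 5.39, 4.73 and 4.71, and Ifit3 by 4.77, 4.83 and 4.38; all 3 code for antiviral proteins with tetratricopeptide repeats. Of the 12 targets with a promoter window, 8 (66.7%) held the ISRE letters in a window, against 3.99% of the 27025 genes with a window. The ISRE letters were in 1 of 10 Stat3 targets and in none of the Stat4, Stat5 and Stat6 targets. GAS letters with 3 spacer bases were in 2 of 12 Stat2, 1 of 10 Stat3 and 3 of 5 Stat4 targets. They were in 1 of 3 Stat5 and 3 of 11 Stat6 targets, against 9.55% of all genes. With 4 spacer bases the counts for the same lists were 1, 2, 2, 1 and 3, against 8.01%. These shares were not tested. Plasmacytoid dendritic cell markers, from cells that make much interferon, summed to 4353 to 13976 in NCFM and 3448 to 4703 in control arrays; Bst2, itself an interferon target, rose by 0.86, 2.19 and 2.38, and Siglech and Ly6d were below the array median on all arrays. Tcf4 was called higher at 4 and 10 h, while Spib was called lower at 10 and 18 h and Ccr9 at 18 h. Their part in these values was not tested.

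Of the 12 Stat3 targets, 3, 3 and 4 rose, beside 5.27%, 8.21% and 7.4% of all genes. The falls were 0, 2 and 1, beside 13.1%, 16.5% and 16.3% of all genes, so the share that fell was near or below that of all genes. The median changes of the 12 were 0.45, 0.36 and 0.37. Junb, an AP-1 subunit named after its values were seen, rose by 1.06, 0.83 and 1.09, and Bcl3 by 0.83 at 18 h. Beside Socs3, given above, Cebpd, a transcription factor of the acute phase, had 0.46 at 4 h with no call and fell by 1.22 at 10 h and 2.40 at 18 h (adjusted p = 0.0019 and 2.05e-05). Myc, which drives growth, had -0.94, -1.47 and -1.32, of which the value at 10 h passed (adjusted p = 0.0423). The 8 Stat5 targets had median changes of 0.88, 0.60 and 0.38. Among them 1 rose at each time, beside 5.27%, 8.21% and 7.4% of all genes. It was Bcl2l1, a survival gene, at 4 h (0.87) and 10 h (0.68) and Pim1, a kinase, at 18 h (1.05), both named after their values were seen and both also on the Stat3 list. Ccnd2, a cyclin, had 2.57 ± 0.89, 2.55 ± 1.00 and 2.26 ± 1.00 and did not pass (adjusted p = 0.0664 at 4 h). Ccnd1 had 0.91, 0.65 and 0.34, and Cish, a feedback inhibitor of Stat5, 0.94 ± 0.92, -0.29 ± 1.02 and 0.31 ± 1.02, with no call.

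Of the 5 Stat4 targets, Furin, a protease, rose by 0.86, 0.70 and 0.64 and Il18rap, a chain of the IL-18 receptor, had -0.15, -0.77 and -0.60, passing at 10 and 18 h. Il18r1, the other chain, had -0.77, -0.52 and -0.73 with no call. The median changes of the 5 were 0.12, 0.08 and 0.14. Over all genes 5.27%, 8.21% and 7.4% rose and 13.1%, 16.5% and 16.3% fell. Of the 16 Stat6 targets, 2, 4 and 3 fell, beside the 13.1%, 16.5% and 16.3% of all genes that fell. At 18 h 1 of them, Tgm2, rose, beside 7.4% of all genes. The medians were -0.11, -0.53 and -0.03. Mrc1, the mannose receptor, had 799 to 1076, 196 to 244 and 81 to 122 in NCFM arrays at 4, 10 and 18 h against 1101 to 1646 over all control arrays. Its changes were -0.61, -2.62 and -3.58. Clec10a, a galactose lectin, had -0.75 at 4 h with no call and fell by 2.53 at 10 h and fell by 2.44 at 18 h. Mgl2, a related lectin, had -0.21, -1.44 and -1.25 with no call. Pparg, a lipid-sensing nuclear receptor, fell by 0.52, 0.90 and 0.71, and Egr2, a transcription factor, by 1.12 at 10 h; these and Tgm2 were named after their values were seen.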

How the data were processed

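The table holds the intensity of 45101 probe sets on 16 arrays, on a linear scale and already normalized by the authors, by a method not given in the sources used here. These deposited intensity values run from 42 to 31573. The probe table names 1 gene for 34945 probe sets, several for 932 and is without an entry for 9160, beside 64 control probe sets; the probe sets naming several genes were not used. Log2 intensities of 1 probe set a gene, that with the highest mean over the 16 arrays, were fitted with limma 3.58.1 (R 4.3.3) as 6 group means over all arrays (10 residual degrees of freedom), with Benjamini-Hochberg adjustment over 18193 genes. The test was checked on simulated data. The number of arrays limits the precision.

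The array numbers were taken to pair the arrays in the replicate block and in the comparison of arrays of the same number. The main fit of group means had no such block, so its p-values do not use the pairing. The pairing was chosen since deviations from the group means correlated at 0.19 to 0.75 in the 36 pairs of the same number (median 0.42). In the 70 pairs of different numbers the correlations ran from -0.75 to 0.73, with a median of -0.32. The labels do not say what a number stands for.

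The members and the gene lists (189 genes, 176 of them measured and the rest not analysed here) were chosen with earlier results of these data known. By rule, the text names each member, the JAK kinases, Irf9, up to 3 genes of each list with the largest change and the 3 genes nearest to a called member. The 12 alternatives that keep all arrays were quantile normalization, median centring, centring on 18 spike-in probe sets, background subtraction (percentile 5, floor 16), a pseudocount of 16, averaging the probe sets of each gene, every probe set alone, dropping dim genes, a variance trend on intensity with robust fitting, only the 2 groups compared, the replicate block and an adjusted p under 0.01. Each of the 16 arrays was also left out in turn. Promoter sequences are from RefSeq. Figures were drawn with matplotlib 3.10.9.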

Additional observations from a re-analysis of the deposited data

How the results depend on the processing

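The calls of Stat2 at 4, 10 and 18 h held in each of the 29 alternatives, at 2.30 to 2.82, 1.83 to 2.27 and 1.80 to 2.11, and that of Stat5a at 4 h did so at 1.12 to 1.47. At an adjusted p under 0.01, Stat3 at 10 h (0.77) and 18 h (0.82) and Stat5a at 10 h (1.07) were not called, and 1713, 2585 and 2416 genes were, against 3335, 4488 and 4320. Testing every probe set gave 5815, 8186 and 7730 calls. With only the 2 groups compared, Stat3 at 18 h (0.82) and Stat5a at 10 h (1.07) lost their calls, Stat6 at 10 h (-0.44) passed, and 2449 genes were called at 18 h. With the replicate block, Stat3 at 4 h (0.50) and Stat5a at 18 h (0.77) passed, the difference of the Stat2 effects at 18 and 4 h passed, and no other member's call changed; 4880, 5666 and 5557 genes were called. Quantile normalization let Stat5a at 18 h (0.86) and Stat5b at 10 h (0.46) pass and gave 0.081 for the Stat6 effect at 18 h minus 4 h; the share of calls that were lower was 58.1%, 50.1% and 51.4%, against 71.2%, 66.7% and 68.8%. Averaging the probe sets of each gene let Stat3 at 4 h (0.43) and Stat5b at 10 h (0.38) and 18 h (0.45) pass, and turned the Stat5b effect at 18 h minus 10 h (0.066).

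Centring on the spike-in probe sets moved the median of all genes to 0.19, -0.24 and 0.01 at the 3 times, called 6832 genes at 10 h, and put the share of lower calls at 18.2%, 90.5% and 72.9%. Stat3 then passed at 4 h (0.70) and not at 10 h (0.52), and Stat6 passed at 10 h (-0.70). The effect differences of Stat2 at 10 h minus 4 h (-0.92) and 18 h minus 4 h (-0.82) and of Stat6 at 10 h minus 4 h (-0.69) passed. It turned those of Stat2 at 18 h minus 10 h (0.10), Stat3 at 10 h minus 4 h (-0.18) and Stat5b at 10 h minus 4 h (-0.22), 18 h minus 10 h (0.10) and 18 h minus 4 h (-0.11). With arrays 2 and 3 only, chosen after the data were seen, Stat3 at 18 h (0.44) lost its call, Stat5a (0.61) and Stat6 (-0.67) at 18 h and the Stat5a effect at 18 h minus 4 h (-0.61) passed, and Stat4 (-0.16) and Stat5b (-0.27) at 18 h turned, as did the effect differences of Stat3 at 18 h minus 10 h (-0.48) and minus 4 h (-0.039), Stat4 at 18 h minus 4 h (-0.31), Stat5b at 18 h minus 4 h (-0.28) and Stat6 at 18 h minus 10 h (-0.23). This leaves 1 control array at 10 and 18 h, assumed to vary like the other groups.

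Leaving out 1 array gave 2138 to 3653 genes at 4 h, 2134 to 4755 at 10 h and 2868 to 4503 at 18 h, lowest without control array 2 at 4 h, 1 at 10 h and 2 at 18 h (2207 without control array 3 at 4 h). Stat3 ran from 0.38 to 0.66, 0.67 to 0.91 and 0.40 to 1.23 at the 3 times, Stat4 from 0.15 to 0.55 at 4 h and 0.22 to 1.00 at 18 h, Stat5a from 0.72 to 1.42 at 10 h, Stat5b from -0.025 to 0.10 at 4 h and -0.25 to 0.45 at 18 h, and Stat6 from -0.51 to -0.37 at 10 h and -0.60 to 0.17 at 18 h. The effect at 18 h minus 10 h ran from -0.37 to 0.46 for Stat3, -0.69 to 0.091 for Stat4, -0.51 to 0.20 for Stat5b and -0.16 to 0.61 for Stat6. That at 18 h minus 4 h ran from -0.11 to 0.73 for Stat3, -0.10 to 0.68 for Stat4, -0.28 to 0.43 for Stat5b and -0.40 to 0.37 for Stat6, and that at 10 h minus 4 h from -0.55 to 0.15 for Stat5a. The cause of these changes was not tested. A probe set near the array median, as for 2 of the 4 of Stat3, cannot show a fall well.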
